A study of Mus musculus with 6 samples.

Results

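The cytosolic ribosomal protein genes were described in the livers of 3 male mice, with 1 mouse per group. Members were the spots on array A and array B whose single annotated gene symbol is that of a protein of the large (Rpl) or small (Rps) subunit, including the stalk proteins Rplp0 to Rplp2 and Rpsa, and leaving out the Rps6k kinases and pseudogene symbols. These were 146 of 16896 spots, 49 on array A and 97 on array B, and they named 66 of 7151 genes, 43 of the large and 23 of the small subunit. A further 29 spots carried a ribosomal protein symbol together with other symbols and were not used. The mice were a calorie-restricted male of 177 days, an ad libitum fed male of 174 days, both of the second age group, and an ad libitum fed male of 17 days, of the first age group, and total liver RNA of each was hybridised to both array kinds. The labels name no strain, genetic alteration or drug, and the ages are in the unit the labels state. A single animal stood for each age and diet, so the spread between animals is unknown for every difference, no test was possible, and the 6 arrays limit the precision of every value.

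Each ribosome is built of a small subunit, which reads the mRNA, and a large subunit, which joins the amino acids, and each subunit needs its full set of proteins around the ribosomal RNA. Hepatocytes make most plasma proteins and hold many ribosomes. Mammalian ribosomal protein mRNAs begin with a C followed by a run of pyrimidines, the 5′ terminal oligopyrimidine (TOP) tract, through which their translation is set by mTORC1, a kinase complex that senses amino acids and insulin. This control acts on translation, so it need not show in the mRNA levels that an array measures.

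The run of C and T letters at the gene start is a feature that the choice of members did not use, and it is shown here for members described below. Of the 66 genes, 52 had a start region in the RefSeq table of the mouse build GRCm38.p6, from 250 bases before to 50 bases after each annotated start. A run of at least 6 C or T letters beginning with C, on the gene's strand and lying wholly within 10 bases on either side of the start, was found in 25 of the 52 genes (48.1%), against 17.7% of 17491 protein-coding genes. The letters CCGGAAG, the core bound by ETS factors such as GABP, were found on either strand of the 300 bases in 25 of the 52 genes too, against 12.9% of coding genes, and on the reverse strand these letters can overlap a C and T run. The windows below run from 15 bases before the start to 15 after it, 5′ to 3′ on the gene's strand, and capitals mark the stretch found within those 10 bases, beyond which C and T letters can go on in lower case, as in Rpl27a and Rpl34. Rpl34 has a second annotated start, not shown.
Rpl27a, chr7:109519180-109519209, plus strand: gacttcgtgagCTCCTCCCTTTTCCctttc
Rpl34, chr3:130730323-130730352, minus strand: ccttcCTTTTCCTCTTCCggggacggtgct
Rps18, chr17:33955651-33955680, minus strand: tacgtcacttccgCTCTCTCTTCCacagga
Rps6, chr4:86857353-86857382, minus strand: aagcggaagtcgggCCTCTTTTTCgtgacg
Rplp2, chr7:141447636-141447665, plus strand: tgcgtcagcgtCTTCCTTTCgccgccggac
Rpl38, chr11:114668565-114668594, plus strand: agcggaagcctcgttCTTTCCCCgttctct
Rpl13, chr8:123102335-123102364, plus strand: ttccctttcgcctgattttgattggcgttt
Rpl36a, chrX:134585639-134585668, plus strand: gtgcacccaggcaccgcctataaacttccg
Rpl13 and Rpl36a had no such run within 10 bases of the start. The window of Rpl13 does hold a stretch of C and T letters, which begins farther before the start than the search reached. The other features searched on both strands were AAGATGGC, the core bound by YY1 (7.69% of the members and 3.57% of coding genes), the TATA box letters TATAAA (9.62% and 14.8%) and the GC box letters GGGCGG (61.5% and 49.2%).

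Intensities were made comparable by quantile normalization of log2 values over the 3 arrays of a kind, and are given below as normalized intensity in arbitrary units, or as log2 differences in which 1 is 2-fold. The deposited arrays of the 174-day mouse were the dimmest, with median intensities of 35.8 on array A and 60.8 on array B, against 333 to 403 for the arrays of the other mice. All 5 measured hepatocyte markers of a list of 18 (Alb, Apoa1, Fga, Serpina1e and Ttr) lay in the brighter part of their arrays. Of the markers of other cells that had a spot, 4 of 6 erythroid, 3 of 4 macrophage, 4 of 6 stellate and fibroblast, 2 of 3 cholangiocyte, 1 of 3 endothelial, 1 of 1 exocrine pancreas and 0 of 2 lymphocyte genes lay there, and these lists held 14, 12, 9, 6, 8, 8 and 10 genes. Their summed normalized intensities in the calorie-restricted, the 174-day and the 17-day mouse were 16149, 14392 and 15855 for erythroid, 1664, 1653 and 1922 for macrophage and 32976, 20788 and 23889 for hepatocyte markers. The hepatocyte markers did not share a direction: in the diet comparison Alb was at 1.18, Serpina1e at -0.46 and Fga at -0.22, with a list median of -0.01. The part of cell makeup in the results was not tested, and in whole liver fewer cells of a type and less RNA per cell cannot be told apart.

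Ribosomal protein spots were seldom among the dimmest. The spots of each array kind were put in 4 bins of level, by percentile of the mean over the mice. Only 2 of the 146 lay in the lowest bin, which held 25.7% of all spots with 1 symbol, while 40.4% of members lay in the second, 37.0% in the third and 21.2% in the highest bin. Above the brightness filter, the 50th percentile of mean level, were 85 member spots (58.2%, against 46.8% of all spots with 1 symbol), and 48 of the 66 genes had such a spot. The other 18 genes had dimmer spots alone, namely Rpl9, Rpl13a, Rpl21, Rpl22l1, Rpl27, Rpl35, Rpl35a, Rpl36, Rpl37, Rpl39l, Rps7, Rps9, Rps19, Rps20, Rps24, Rps25, Rps27l and Rps28. A spot's brightness depends on its own sequence and length as well as on the mRNA, so levels are not ranked between genes. The filter uses the mean of the 3 mice, so a high value in a single mouse could bring a spot in, and medians of the gene groups are therefore also given over all spots.

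The age comparison sets the 174-day mouse on the ad libitum diet against the 17-day mouse. Above the filter, ribosomal protein genes as a group lay close to all genes there. The median of the 48 genes above the filter was 0.004 log2, with 24 above 0 and 24 below, against a median of -0.03 over all 3865 genes. Over all spots, without the filter, the 66 genes had a median of 0.07, with 42 above 0, against -0.002 and 47.3% above 0 over 7151 genes. By subunit, the median was -0.01 for 33 large and 0.02 for 15 small subunit genes above the filter. Over all spots it was 0.02 for 43 large subunit genes, with 25 above 0, and 0.12 for 23 small subunit genes, with 17 above 0. With median centring in place of quantile normalization the median of the 48 genes was 0.17, while that of all genes moved to 0.21. Relative to all genes the members were thus slightly below in that setting and slightly above in the reported one.

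**Figure D1:**
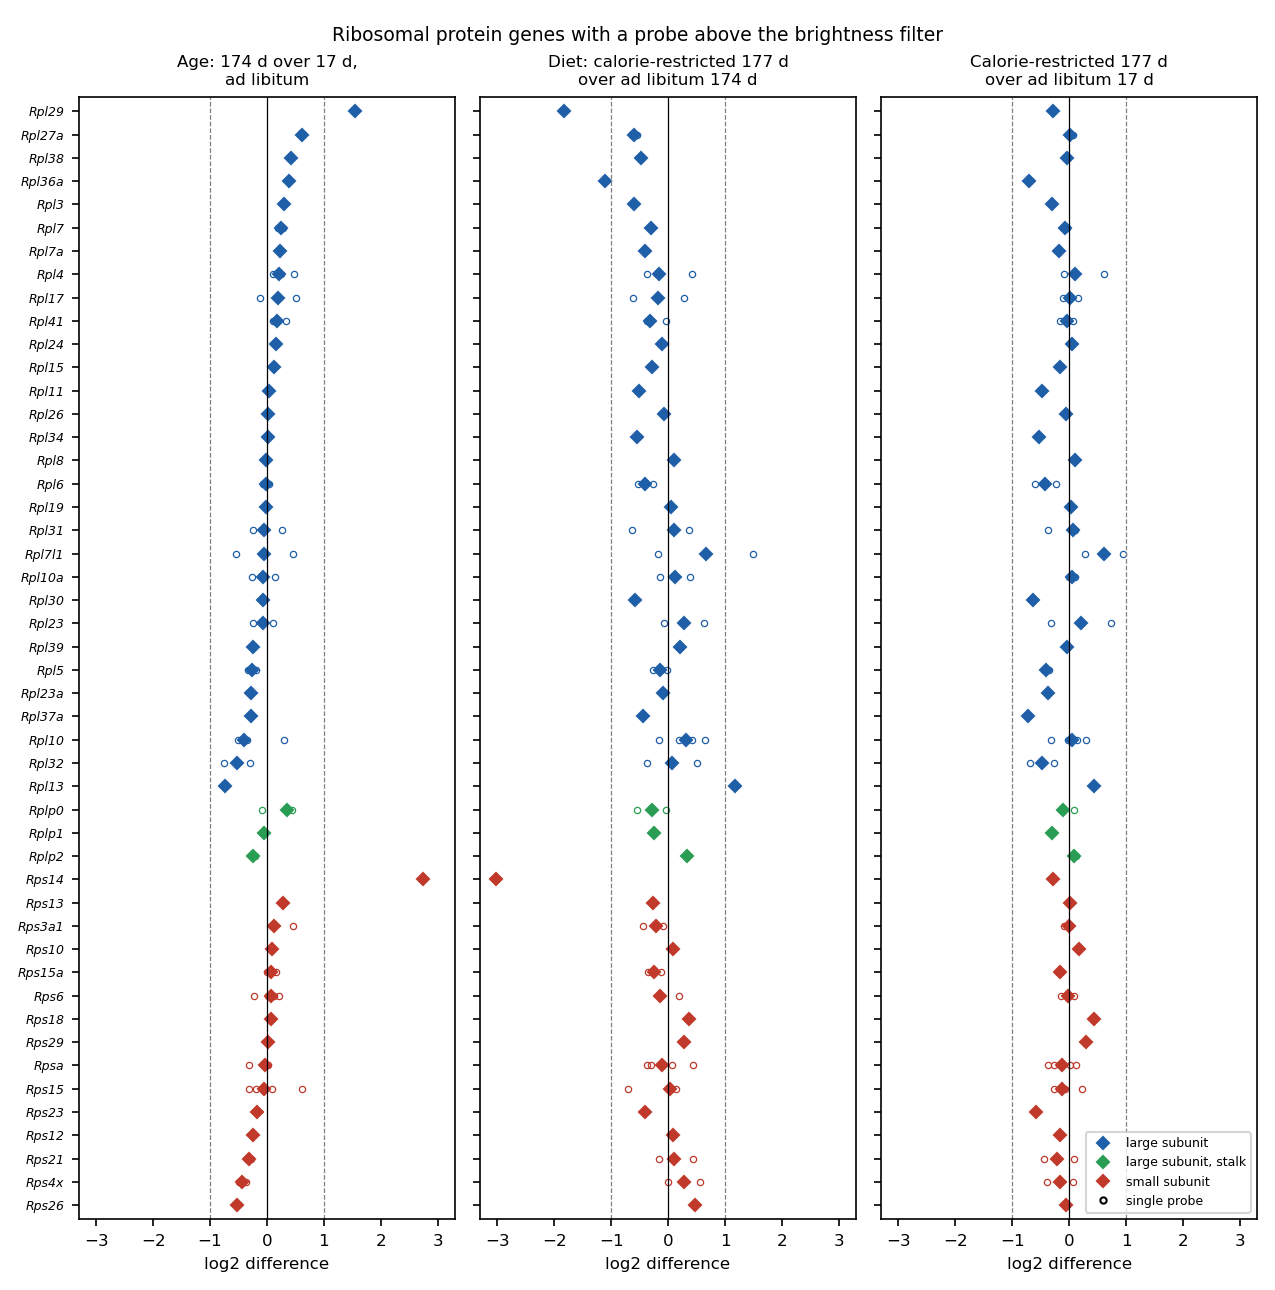
Log2 differences of the 48 ribosomal protein genes with a spot above the brightness filter, in the age, diet and calorie-restricted against 17-day comparisons. Diamonds are genes (the median of their spots), open circles single spots, and dashed lines mark 2-fold; most genes sit between the dashed lines, and Rps14 and Rpl29 stand far out in the age and diet comparisons but not in the third.

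Few members differed by 2-fold between the 174-day and the 17-day mouse. At least 2-fold higher were 2 of the 48 genes, against 0.724% of all genes, and 0 were at least 2-fold lower, against 0.440%. Of these 2, Rps14 passed the filter through the high 174-day value that is counted here. At 1.5-fold, 3 were higher and 1 lower, against 3.70% and 4.89% of all genes. Over all spots, 1 of 66 genes was at least 2-fold higher, against 1.96%, and 0 were lower, against 1.26%.

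The 2 higher genes each rested on a single spot at which the 174-day mouse stood at least 1.5 log2 from both other mice, the only 2 such spots among the 146 members (1.37%, against 1.00% of all spots with 1 symbol). Rps14, a small subunit protein whose loss causes the anaemia of the human 5q- syndrome, read 894 in the 174-day mouse and 133 in the 17-day mouse (2.74 log2). The deposited intensities of that spot were 182 in the calorie-restricted, 323 in the 174-day and 269.8 in the 17-day mouse, although the 174-day array was the dimmest. Its normalized readings in the calorie-restricted (110) and 17-day mouse (133) were below those of a spot at the 50th percentile (188 and 200, Rps3a1). Rps14 thus passed the filter through its value in the 174-day mouse. Its second, dimmer spot read 115 in the 174-day mouse and 86.3 in the 17-day mouse (0.42), which is -2.32 log2 relative to the brighter spot. Rpl29, a large subunit protein, read 605 in the 174-day and 206 in the 17-day mouse (1.55), whereas its dimmer spot read 75.7 and 121.8 in the same mice (-0.69). The 2 spots of Rpl29 thus pointed in opposite directions.

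Rpl27a, a large subunit protein whose mutation causes ataxia in mice, was the next highest, and here both spots gave the same value. They read 297 and 325 in the 174-day mouse, against 194 and 212 in the 17-day mouse, differences of 0.62 each on array A. With the correction for spot position described below, the gene was at 0.42. Rpl38, which favours the translation of Hox mRNAs in the mouse embryo, read 428 in the 174-day and 318 in the 17-day mouse (0.43), its dimmer spot was at 0.15, and with the correction the gene was at 0.20. Rpl36a, next to the exit site for tRNA, was at 0.39, but at -0.14 with the correction for position.

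The lowest members in the 174-day mouse were less than 2-fold apart. Rpl13 had a single spot, which read 197 in the 174-day and 327 in the 17-day mouse (-0.73). Rps26, at the channel where mRNA leaves the small subunit, read 726 in the 174-day and 1049 in the 17-day mouse (-0.53), and its dimmer spot on the other array was at -0.42. Both spots of Rps26 lay on the same side. Rpl32 was at -0.53, with its array A spot at -0.76 and its array B spot at -0.30. Rps4x, encoded on the X chromosome, was at -0.44, with spots at -0.38 and -0.50 and a dimmer one at -0.18. Rpl10, which joins the large subunit as the last step of its maturation, was at -0.40, but its 4 spots ran from -0.51 to 0.30. With the correction for position Rpl13 was at -0.44, Rps26 at -0.30, Rpl32 at -0.37, Rps4x at -0.26 and Rpl10 at -0.24, so these 5 kept their direction at smaller values.

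The stalk proteins, which draw translation GTPases to the large subunit, did not share a direction. Rplp0, the base of the stalk, read 223 in the 174-day and 174 in the 17-day mouse (0.36), with 3 spots from -0.09 to 0.44. Rplp1 read 282 and 294 in those mice (-0.06), and Rplp2 read 255 and 301 (-0.24, with its 2 spots at -0.22 and -0.26). With the correction for position Rplp0 was at 0.42, while Rplp1 and Rplp2 were at 0.05 and 0.04 and so changed side.

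Members measured by several spots show how far a single spot can be trusted. Rps6, the protein phosphorylated by S6 kinases downstream of mTORC1, had 4 spots above the filter, all on array B, at -0.22, 0.02, 0.12 and 0.21 in the age comparison. Their median was 0.07, with normalized intensities of 324 in the 174-day and 332 in the 17-day mouse. The median level and the median difference differ in sign here, since each is a median over the 4 spots, and both are close to no difference. Rpsa, a small subunit protein also known as the laminin receptor, had 4 such spots on both arrays, from -0.31 to 0.02, and 2 dimmer spots at 0.25 and 0.74. The brightest spot of Rpsa read 5282 in the 174-day mouse and 5495 in the 17-day mouse (-0.06). Rpl4, which lines the exit tunnel of the large subunit, had spots from 0.10 to 0.47. Of the 5 genes with 4 spots above the filter, only Rpl4 had all 4 on the same side of 0, although 1 of its 2 dimmer spots was at -0.17.

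Further members with at least 3 spots above the filter, or with such spots on both arrays, had small differences in the age comparison. Rps15 was at -0.05 over 4 spots that ran from -0.31 to 0.62. Rpl31, at the rim of the exit tunnel, was at -0.05 over 3 spots from -0.25 to 0.26. Rps21 was at -0.31, with 3 spots from -0.36 to -0.28. The spots of Rps21 lay close together, beside a median distance of 0.36 between the outermost spots of a gene, but with the correction for position it was at -0.03. Rpl41, a very short protein at the contact of the subunits, was at 0.17 over 3 spots from 0.11 to 0.33. Rps3a1 was at 0.12 over 3 spots from 0.09 to 0.46, and Rpl7 at 0.24 over 2 spots from 0.20 to 0.28.

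**Figure D2:**
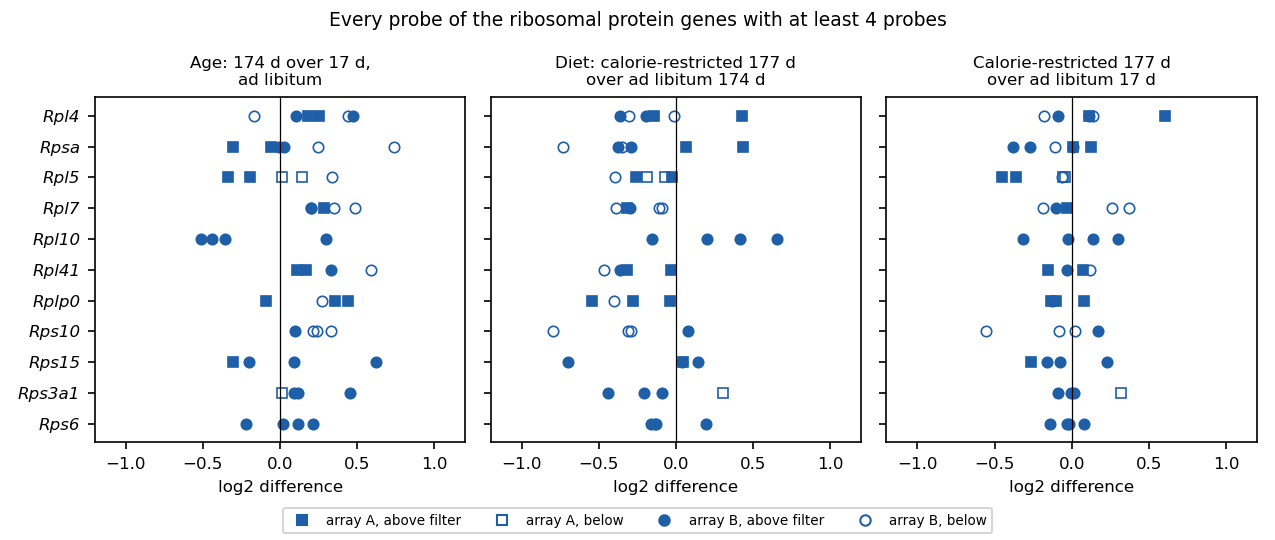
Log2 difference of every spot of the 11 ribosomal protein genes with at least 4 spots, squares for array A and circles for array B, filled where the spot lies above the brightness filter. Spots of a gene often fall on both sides of 0, as for Rpsa and Rps15, and of the 61 dimmer spots among all members 47 lie above 0 in the age comparison.

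Across the 22 genes with at least 2 spots above the filter (59 spots), the SD of single spots within a gene was at least as large as the SD of gene means. These SDs are not like for like, since a gene mean averages at least 2 spots and so carries less spot noise. In the age comparison the pooled SD of spots within a gene was 0.27 log2 and the SD of the gene means 0.27. For diet these were 0.38 and 0.29, and in the calorie-restricted against 17-day comparison 0.25 and 0.23. All spots lay on the same side of 0 for 10 of the 22 genes in the age comparison, 9 in the diet comparison and 8 in the third. The largest distance between spots of a gene was 1.00 in the age and 1.67 in the diet comparison, both for Rpl7l1, and 1.05 in the third for Rpl23. A difference that rests on 1 spot and is smaller than the SD within a gene lies within the spread of repeated measurement of the same gene. That spread is technical and holds no spread between animals. Whether gene values differed beyond it was not tested.

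The diet comparison sets the calorie-restricted 177-day animal beside the 174-day animal on the ad libitum diet. In the reported processing, ribosomal protein genes had slightly lower values in the restricted animal. The median of the 48 genes was -0.14 log2, with 19 above 0 and 29 below, against -0.04 over all genes, where 47.2% were above 0. Over all spots the 66 genes had a median of -0.18, with 25 above 0 and 41 below, against -0.01 over 7151 genes. Large subunit genes above the filter had a median of -0.17 (11 of 33 above 0) and small subunit genes one of 0.04 (8 of 15 above 0), but over all spots the medians were -0.17 and -0.24. The order of the subunits thus depended on the filter. With the correction for spot position the median of the 48 genes was -0.01, against 0.00 over all genes. With median centring it was -0.32, against -0.31, and with loess -0.17, against -0.06. In the top 25% of spots the median of 22 member genes was 0.01, against -0.07. Where the members lay relative to all genes thus depended on the processing and on the brightness of the spots. The age and diet comparisons share the arrays of the 174-day mouse, so a value of that mouse enters both with opposite sign.

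At least 2-fold higher in the calorie-restricted mouse was 1 of the 48 genes, against 2.25% of all genes, and 3 were at least 2-fold lower, against 4.61%. At 1.5-fold, 2 were higher and 5 lower, against 11.5% and 17.0% of all genes. Over all spots, 1 of 66 genes was at least 2-fold higher, against 3.06%, and 2 lower, against 4.38%. Among the members the shares at 1.5-fold were below those of all genes in both directions. Above the filter, however, the 48 members had 85 spots, whereas the 3865 genes in all had 4524. A gene's value is the median of its spots, and a median over more spots can lie nearer to no difference. The part of this in the shares was not tested.

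The lowest members were Rps14 (-3.02) and Rpl29 (-1.83), at the spots described above, where the 174-day mouse stood apart. For Rps14 the 174-day value also brought the spot above the filter. Rps14 read 110.1 in the calorie-restricted and 894 in the 174-day mouse, and its dimmer spot read 95.9 and 115 (-0.27). Rpl29 read 170.1 in the calorie-restricted and 605 in the 174-day mouse, and its dimmer spot was at 0.56. Without spots that stood apart in 1 mouse, 1 gene was at least 2-fold lower. That gene was Rpl36a, which read 547 in the calorie-restricted and 1175 in the 174-day mouse (-1.10), from a single spot. With the correction for position Rpl36a was at -0.37. Rpl3, at the peptidyl transferase centre, was at -0.60 (200 in the calorie-restricted and 302 in the 174-day mouse) and at 0.10 with that correction. Rpl27a was at -0.59, with its spots at -0.55 and -0.64, and was at -0.52 with the correction.

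The highest member in the calorie-restricted mouse was Rpl13, with a reading of 442 in that mouse and 197 in the 174-day mouse (1.17). Its single spot was at 0.56 with the correction for position. Rpl7l1, a paralog of Rpl7, was at 0.66, but its spot on array B was at 1.49, its spot on array A at -0.18 and a dimmer spot at 0.19. The spots of Rpl7l1 therefore did not share a direction. Rps26 read 1007 in the calorie-restricted and 726 in the 174-day mouse (0.47), with its dimmer spot at 0.35. Rps18, in the head of the small subunit, read 330 and 256 in those mice (0.36), although its dimmer spot was at -0.28. Rplp2 was at 0.33, with its spots at 0.32 and 0.33, but at -0.06 with the correction for position, while Rplp0 was at -0.28 and Rplp1 at -0.25. The stalk proteins thus lay on both sides of 0, but with the correction Rplp0 was at -0.16 and Rplp1 at -0.10, so all 3 were then below 0.

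Among members with 3 or more spots, the diet differences were small beside the spread. Rps6 was at -0.13, with spots from -0.16 to 0.20, and read 336 in the calorie-restricted and 324 in the 174-day mouse. Rpsa was at -0.11, with spots from -0.37 to 0.43 above the filter and a median of -0.54 over its 2 dimmer ones. Rpl4 was at -0.17, with spots from -0.36 to 0.43. None of these genes kept a single side of 0 over all spots above the filter. Rpl10 was at 0.31 (-0.16 to 0.66), Rpl31 at 0.11 (-0.63 to 0.37), Rps15 at 0.04 (-0.70 to 0.14) and Rps21 at 0.10 (-0.16 to 0.45). The spots of Rpl41 above the filter ran from -0.36 to -0.03, those of Rps3a1 from -0.44 to -0.09 and those of Rplp0 from -0.54 to -0.04. These genes thus had all such spots below 0.

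The third comparison sets the calorie-restricted mouse beside the 17-day mouse, and fewer members were 2-fold or 1.5-fold apart than in the diet comparison. The median of the 48 genes was -0.06 log2, with 17 above 0 and 31 below, against -0.09 over all genes, where 41.1% were above 0. No member was at least 2-fold higher (against 0.466% of all genes) or lower (against 1.11%). At 1.5-fold, 1 was higher and 3 lower, against 5.49% and 9.91%. The age comparison had 3 members higher and 1 lower at that threshold, so it did not have more. Over all spots the 66 genes had a median of -0.03, as all genes did, and 0 were 2-fold apart in either direction, against 0.378% higher and 0.755% lower. The median was -0.05 for the large and -0.12 for the small subunit above the filter, and 0.003 and -0.03 over all spots.

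The lowest members in this comparison were Rpl37a (311 in the calorie-restricted and 515 in the 17-day mouse, -0.73), Rpl36a (-0.71), Rpl30 (-0.64), Rps23 of the decoding centre (-0.58) and Rpl34 (-0.52). Each of these 5 rested on 1 spot above the filter. The 2 dimmer spots of Rpl37a had a median of 0.30 and so lay on the other side of 0. Rpl30 read 611 in the calorie-restricted and 951 in the 17-day mouse, and Rps23 read 613 and 916. With the correction for position these 5 lay from -0.52 to -0.04. The highest were Rpl7l1 (0.61), Rpl13 (0.44), Rps18 (330 in the calorie-restricted and 245 in the 17-day mouse, 0.43), Rps29 (0.29) and Rpl23 (0.21). The 2 brighter spots of Rpl23 were at 0.74 and -0.32, and the dimmer spot of Rpl7l1 was at -0.30. With the correction for position Rpl7l1 was at 0.57, Rpl13 at 0.12, Rps18 and Rps29 at 0.38 each and Rpl23 at 0.52.

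Member spots were also split by level. This split of the spots was chosen after their values were seen. Several of the spots belong to the same gene, and the split is not given for other gene groups. Over all spots in the age comparison, 44 translation factors had a median of 0.08 and 49 mitochondrial ribosomal proteins one of -0.08, beside 0.07 for the 66 member genes. In the age comparison the 61 member spots below the filter had a median of 0.25 log2 and 47 of them lay above 0, whereas all 5139 spots below the filter had a median of 0.00 and 48.6% lay above 0. The 31 member spots in the highest bin of level had a median of -0.18, with 9 above 0, against -0.04 for all spots of that bin. In the third bin the 54 members had a median of 0.10, against -0.01. The member medians thus ran from positive to negative with rising level, but with median centring the highest bin was at 0.29 for members and 0.37 for all spots, so the sign there depends on the scaling.

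In the diet comparison the same bins ran the other way. The arrays of the 174-day mouse enter the age and diet comparisons with opposite sign, so this is not a separate observation. Member spots below the filter had a median of -0.23, with 17 of 61 above 0, against 0.00 for all spots below it, and those of the highest bin had a median of 0.04, against -0.05 (with median centring -0.58, against -0.64). In the calorie-restricted against 17-day comparison, which leaves out the 174-day arrays, member spots below the filter had a median of 0.02 and those of the highest bin one of -0.06. Neither of these values is far from 0. Both array kinds showed the values in the age comparison, with a median of 0.15 over 20 dimmer spots of array A (15 above 0) and of 0.26 over 41 of array B (32 above 0). The array kinds measured the same mice and so are not independent of each other.

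Within the same gene the picture was less clear. In the 24 genes with spots above and below the filter, the dimmer spots lay higher than the brighter ones in 16 (66.7%) in the age comparison, with a median distance of 0.20, against 53.7% and 0.05 over the 1025 such genes of the arrays. For diet they lay higher in 10 of 24 (41.7%, against 48.1%). With median centring, loess or the correction for position, the median of the 61 dimmer spots stayed between 0.22 and 0.26 in the age comparison and between -0.28 and -0.11 in the diet comparison. Spots of several genes can share sequence with ribosomal protein pseudogenes, and no spot sequence was used here, so the part of such cross-hybridisation was not tested. The part of the low brightness of the 174-day arrays was not tested either.

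**Figure D3:**
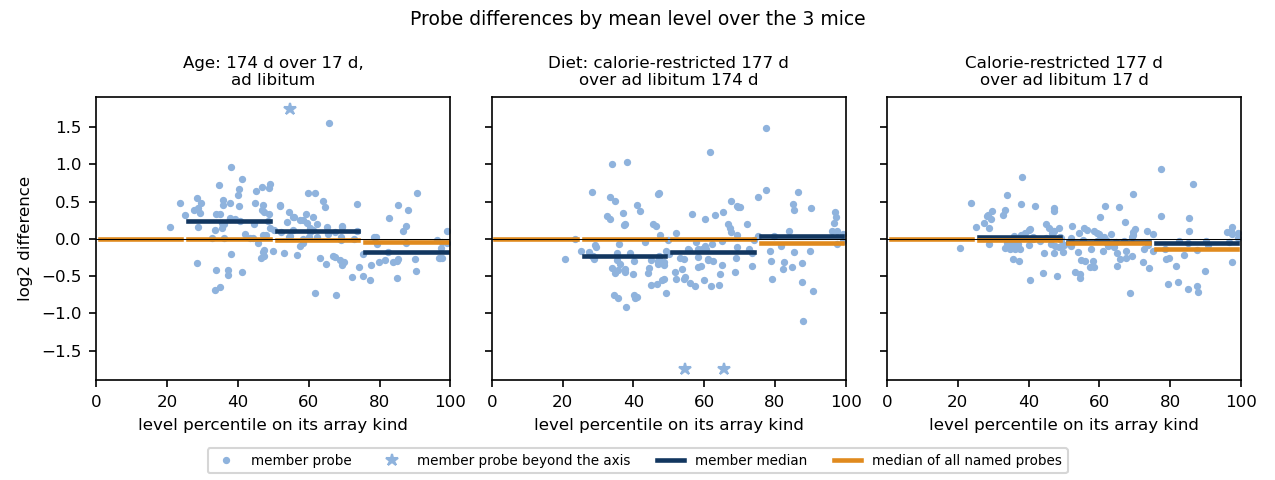
Log2 difference of each of the 146 member spots against the percentile of its mean level on its array kind. Dark lines are member medians and orange lines the medians of all spots with 1 symbol, in 4 bins of level (no member line for the lowest bin, which holds 2 members), and stars mark spots beyond the axis; the member medians run from 0.25 to -0.18 in the age panel and from -0.23 to 0.04 in the diet panel, where with median centring the highest bin is at 0.29 and -0.58.

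The 4 members that are paralogs of core subunits, Rpl7l1, Rpl22l1, Rpl39l and Rps27l, were mostly dim. Rpl22l1, a paralog of Rpl22, had 2 dimmer spots that lay on opposite sides of 0, at -0.42 and 0.32 in the age and at 1.01 and -0.16 in the diet comparison. Rpl39l, most known from testis, had 1 dimmer spot at -0.32 and 0.63, and Rps27l, a target of p53, had 1 at 0.16 and -0.27. Apart from Rpl7l1 none had a spot above the filter. Without the paralogs the median of the remaining 47 genes above the filter was 0.02 in the age, -0.14 in the diet and -0.07 in the calorie-restricted against 17-day comparison.

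Genes that build the ribosome had medians near 0 in all 3 comparisons. Of 105 genes for ribosome assembly and ribosomal RNA synthesis, 49 had a spot above the filter, with a median of -0.004 in the age comparison (0 at least 2-fold higher, 1 lower), 0.04 in the diet comparison (2 higher, 1 lower) and 0.00 in the third (0 either way). Over all spots the medians of 86 such genes were -0.009, 0.005 and 0.00. The gene beyond 2-fold in the age comparison was Rsl1d1 (-5.14 in the age and 5.41 in the diet comparison), which rests on 1 bright spot, and over all its spots the values were -2.19 and 2.43. Emg1, a methyltransferase of 18S ribosomal RNA, was at 0.68 in the age and -1.24 in the diet comparison, and Imp3, of the small subunit processome, was at 1.04 in the diet comparison. Mdn1 (-0.67) and Nop16 (0.63) were the further named genes of the age comparison and Rcl1 (-0.92) that of the diet comparison. In the calorie-restricted against 17-day comparison the named genes were Ddx52 at -0.84, Riok1 at -0.57, Nip7 at 0.71 and Pwp2 at 0.75.

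Other mRNAs known to carry a TOP tract were also near 0 as a group. Of 24 such genes, 10 had a spot above the filter, with medians of 0.02 in the age, 0.09 in the diet and 0.02 in the third comparison. Of these 10, 0 were 2-fold apart, where the shares over all genes were at most 4.61% in either direction. Over all spots 15 of them had medians of 0.02, 0.03 and 0.10. In the diet comparison Hnrnpa1, an RNA-binding protein (0.88), and Eif4b, an initiation factor (0.79), were highest, and Eif3a (-0.87) and Eef1g (-0.72) lowest. Over all their spots Eif4b was at 0.23, Eif3a at -0.20 and Eef1g at -0.34. In the age comparison they ran from -0.61 for Eif4b and -0.43 for Vim to 0.33 for Eif3a and 0.37 for Pabpc1, the poly(A)-binding protein. In the third comparison Eif3a (-0.54), Eef1g (-0.48), Ybx1 (0.36) and Hnrnpa1 (0.47) were outermost. Among ribosomal protein genes, the 17 with a C and T run at the annotated start and a spot above the filter had medians of 0.02 in the age and -0.13 in the diet comparison, and the 20 without a run -0.04 and -0.11. Over all spots the order in the age comparison turned, with 0.03 over 25 genes with a run and 0.10 over 27 without, and the diet medians were -0.19 and -0.17. A gene counted as without a run can hold one farther from its annotated start, as Rpl13 does. The split is therefore not one of genes with and without a TOP tract.

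The nearest gene groups of the translation machinery also had medians within a small range. Translation factors, 26 genes above the filter, had a median of 0.03 in the age, -0.15 in the diet and -0.20 in the third comparison. Mitochondrial ribosomal proteins, which form the separate ribosome of that organelle, had medians of -0.09, 0.25 and 0.11 over 22 genes. Single genes lay far out here too. Eif2a was at 3.705 in the age and -4.122 in the diet comparison, and Mrpl50 at 4.52 and -4.57. The lowest in the age comparison were Eif4b (-0.61) and Mrpl42 (-0.68). Over all spots the medians were 0.08, -0.10 and -0.02 for 44 translation factors and -0.08, 0.05 and 0.03 for 49 mitochondrial genes. For diet, 29 of the 48 cytosolic and 8 of the 22 mitochondrial genes above the filter lay below 0, and 41 of 66 and 22 of 49 over all spots. The difference between the cytosolic and mitochondrial genes was not tested.

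**Figure D4:**
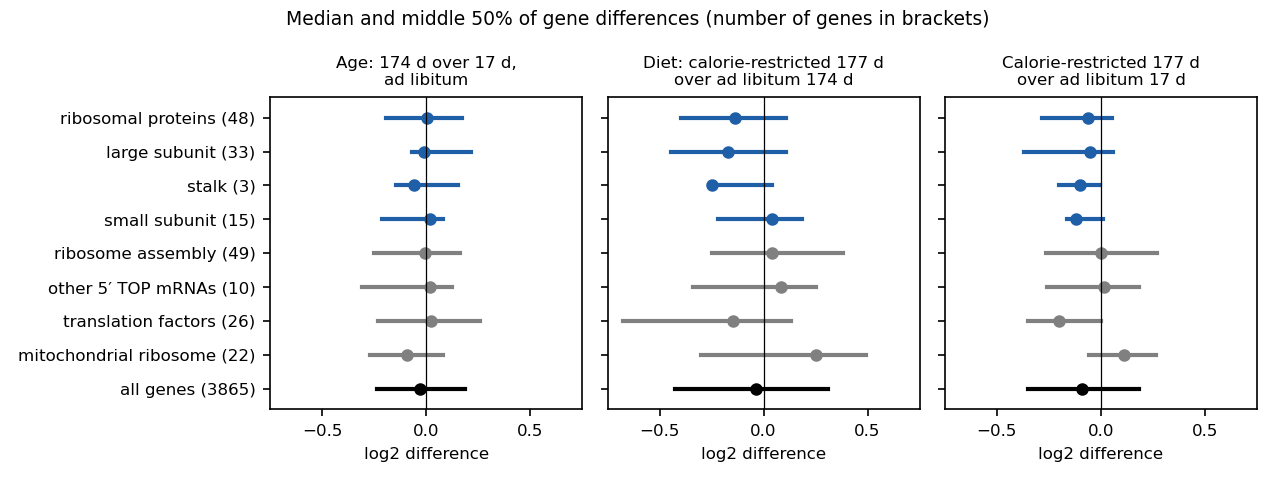
Median (points) and middle 50% (bars) of gene log2 differences for ribosomal protein genes and their subunits in blue, related gene lists in grey and all genes in black, over genes with a spot above the brightness filter. The medians run from -0.25 for the stalk genes to 0.25 for mitochondrial ribosomal proteins, both in the diet comparison, and the bars of the ribosomal protein genes overlap those of all genes in each panel.

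Several diet values of the members changed under the correction for spot position. The correction split each array's spot list into 16 stretches of equal length and removed the median deviation of each stretch and of each rank inside a stretch. A rank holds only 16 spots, 1 from each stretch and the corrected spot among them, so this step can change a value whatever its cause. The physical layout of the arrays is not given in the sources used here. The part of position in the values was therefore not tested. Member spots lay in 14 of the 16 stretches on array A and in all 16 on array B, with up to 15 in a stretch. With the correction, 1 gene (Rps14, 2.71) stayed at least 2-fold higher in the age comparison, while Rpl29 was at 0.96. For diet, no gene was 2-fold higher with the correction (0 of 48), and 2 were lower by that much, Rps14 (-2.79) and Rpl29 (-1.13). Shares of all genes with the correction are not given here, so these counts cannot be set against them.

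**Figure D5:**
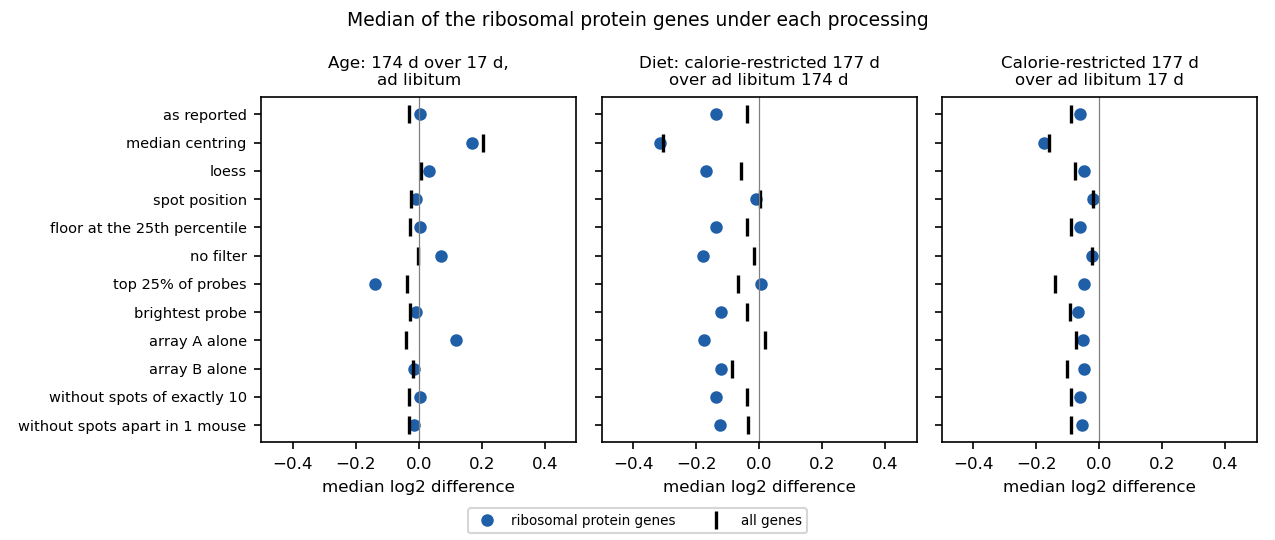
Median log2 difference of the ribosomal protein genes (points) and of all genes (bars) under the reported processing and its alternatives, for each comparison. The diet median lies at -0.14 as reported and at -0.01 with the correction for spot position, and with median centring points and bars move together.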

How the data were processed

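Liver total RNA of 3 mice, 1 per group, was measured on arrays A and B with 8448 spots each. The deposited values are 1 intensity per spot, which the authors gave without a statement of background correction or scaling in the sources used here. Spots were named through GEO's platform annotation: 9663 had 1 symbol, 436 had several and 6797 had none, and all 66 member genes matched RefSeq by gene number. Within each array kind, intensities below the array's 5th percentile were set to it, log2 was taken and the 3 arrays were quantile normalized. Spots with a mean level above the 50th percentile of their kind passed the filter, and a gene's value is the median of its spots. Differences of at least 2-fold (log2 of 1) were counted, with no test, since a group is 1 mouse. Alternatives were median centring, no scaling, loess (span 0.3), other floors and filters, the brightest spot, each array kind alone, a threshold of 1.5-fold, the removal of spots of exactly 10 or apart in 1 mouse, and a correction for position. Named genes were the 5 highest and 5 lowest per comparison, those at least 2-fold apart, those with at least 3 spots above the filter or with such spots on both arrays, the stalk genes, the paralogs, Rpsa and Rps6. In the other lists they were taken from the 2 highest and 2 lowest. Members and lists were chosen with earlier results of these data known. Scripts ran in Python 3.11.15 with numpy 2.4.6, pandas 2.3.3, scipy 1.17.1 and statsmodels 0.14.6, and were tested on simulated data.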

Additional observations from a re-analysis of the deposited data

How the results depend on the processing

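No paired analysis was possible because each group is 1 mouse and the labels carry no replicate numbers, and for the same reason no replicate could be left out. Of the values recomputed under the alternatives, 115 stayed near the reported one and 26 moved; the cause was not tested. Near means, for a median, closer than the SD of spots within a gene (0.27, 0.38 and 0.25 in the age, diet and calorie-restricted against 17-day comparison), a wide limit beside these medians, and for a count or an SD within 1.5 times. Without scaling the median was -2.67 in the age comparison (all genes -2.83), 2.30 in the diet comparison (2.57) and -0.34 in the calorie-restricted against 17-day comparison (-0.28), and at least 2-fold apart were 0 higher and 47 lower (age), 47 higher and 0 lower (diet) and 1 lower (calorie-restricted against 17-day). In the age comparison the 2 genes at least 2-fold higher became 1 over all spots, on array A alone, on array B alone and with the correction for position, and 0 in the top 25% of spots and without spots apart in 1 mouse. In the diet comparison the 1 higher gene became 0 in the top 25%, on array A alone and with the correction, and 2 on array B alone, and the 3 lower genes became 1 in the top 25%, on array B alone and without spots apart. At 1.5-fold the counts were 1 lower (age), 2 higher and 5 lower (diet) and 1 higher and 3 lower (calorie-restricted against 17-day). Shares of all genes are given above for 1.5-fold and for all spots. For the other settings they are not given, so those counts cannot be read against all genes. Apart from no scaling, the median ran from -0.14 to 0.17 (age), from -0.32 to 0.01 (diet) and from -0.18 to -0.02 (calorie-restricted against 17-day). Median centring moved the median of all genes to 0.21, -0.31 and -0.16 in these comparisons.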
